A study of Rattus norvegicus with 35 samples.

Results

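The olfactory receptor (OR) genes on the distal part of rat chromosome 3 were examined in the olfactory epithelium of newborn, adult and old rats. They were taken as the probes whose gene name begins with Olr, or whose description holds the words olfactory receptor, with a position on chromosome 3 at or above 72 Mb in build rn3, the build of the array files. The rule uses names and positions alone and gave 129 members of 1138 OR probes and of 41012 probes in all. The members lie in 2 separate clusters. The first, from Olr621 to Olr745, holds 90 members between 72025155 and 74644292, and the second, from Olr747 to Olr796, holds 39 members between 96692427 and 97911184. The 22.0 Mb between them hold no OR probe. Within the clusters, the median distance between neighbouring probes was 23.5 kb and 26.1 kb. The last OR probe before the limit of 72 Mb is Olr619, at 71986153, and the first one past it is Olr621.

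All rats were Brown Norway, an inbred strain. The 19 newborn pups, 3 to 5 days old, came from 4 litters (L1 with 4 pups, L2, L3 and L4 with 5 each) and gave 1 array each, from 1 side of the nose. The 4 adult rats were 9 weeks old and the 4 old rats 22 months old, and each gave 2 arrays, from sides A and B. Adult and old rats were males, whereas the labels do not give the sex of the pups, and the pups of a litter share a mother. Olfactory markers were present at all ages, and so were markers of other nasal cells. Acta1, Ckm and Myh3, genes of skeletal muscle, were above background in all 19 pups, and their summed level lay between 12.3 and 363 times the array median in pups, between 0.368 and 1.10 in adult rats and between 0.407 and 0.744 in old rats. The adult arrays were scanned on days of their own, so age and scan day cannot be told apart, except for L1 and old rats, which shared a day. No slide held more than 1 age group, so age and slide cannot be told apart in any comparison of ages.

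OR proteins are G protein-coupled receptors that bind odorants at the cilia of olfactory sensory neurons (OSN). A mature OSN transcribes mainly a single OR gene from a single allele, so the level of an OR transcript in whole epithelium reflects both the number of OSN that chose it and the transcript content of each. These cannot be told apart in bulk RNA. The receptor acts through Gαolf (Gnal) and adenylyl cyclase (Adcy3), which opens a cyclic nucleotide-gated channel (Cnga2, Cnga4, Cngb1). OR genes sit in tandem arrays that arose by duplication, and genes of a family are often neighbours.

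Most members shared a family that the rule had not used. The accession of a probe led to a current RefSeq symbol (assembly GRCr8) for 128 of the 129 members, and 123 of these symbols belong to OR family 4, while 5 are still Olr names. The first cluster holds the subfamilies Or4c (44 members), Or4a (21), Or4p (9), Or4x (5), Or4b (4) and Or4s (1), and the second holds Or4f (23), Or4k (13) and Or4g (3). On the arrays, 89 probes lie on the minus strand and 40 on the plus strand. The 129 probes have 129 different sequences of 60 bases.

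Recent duplicates can be hard to separate by hybridization, so the probes that were most alike are shown with the bases that differ. Of all pairs of member probes, 7 were at least 85% identical over 40 bases or more without gaps, and they involve 14 members. In the pairs below, capitals mark bases that differ from the other probe of the pair. The files give the gene and the position of a probe but not whether it lies in coding or untranslated sequence.
Olr665 (chr3:73010072-73010131, minus strand): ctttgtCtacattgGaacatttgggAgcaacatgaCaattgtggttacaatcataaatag
Olr668 (chr3:73066624-73066683, minus strand): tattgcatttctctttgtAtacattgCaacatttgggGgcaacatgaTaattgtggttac
Olr666 (chr3:73023143-73023202, minus strand): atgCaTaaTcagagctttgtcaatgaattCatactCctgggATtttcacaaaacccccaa
Olr669 (chr3:73082095-73082154, minus strand): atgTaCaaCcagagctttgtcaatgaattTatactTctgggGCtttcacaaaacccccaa
Olr621 (chr3:72025155-72025214, minus strand): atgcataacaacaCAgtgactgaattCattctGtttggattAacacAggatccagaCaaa
Olr633 (chr3:72259195-72259254, plus strand): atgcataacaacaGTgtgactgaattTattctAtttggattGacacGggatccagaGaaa
Olr629 (chr3:72202618-72202677, minus strand): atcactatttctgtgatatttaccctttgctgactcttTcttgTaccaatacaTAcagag
Olr691 (chr3:73508579-73508638, plus strand): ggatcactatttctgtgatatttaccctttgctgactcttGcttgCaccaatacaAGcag
Olr665 and Olr668 differ at 4 of 48 bases compared, Olr666 and Olr669 at 7 of 60, Olr621 and Olr633 at 7 of 60, and Olr629 and Olr691 at 4 of 58. The probes of the first 2 pairs gave different detection. Olr668 and Olr666 were above background on all 8 adult and all 8 old arrays and on no newborn array, whereas Olr665 and Olr669, their counterparts, were above background on none of the 35 arrays. Olr629 and Olr691, which lie 45 places apart in the order of members, gave log2 changes between newborn and adult rats of −3.23 and −3.08, and cross-hybridization between them was not tested.

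The probes of members at the extremes of the comparisons below follow, with no base marked: the member that was higher in newborn than in adult and old rats (Olr698), the member with the largest bound on its fold against old rats (Olr731), the member called higher in newborn than in adult but lower than in old rats (Olr776), and a member above background in adult rats only (Olr677).
Olr698 (chr3:73670402-73670461, minus strand): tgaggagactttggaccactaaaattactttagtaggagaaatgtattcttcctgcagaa
Olr731 (chr3:74396283-74396342, minus strand): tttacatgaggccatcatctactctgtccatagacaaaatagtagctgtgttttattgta
Olr776 (chr3:97344126-97344185, minus strand): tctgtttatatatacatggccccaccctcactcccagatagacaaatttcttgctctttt
Olr677 (chr3:73303000-73303059, minus strand): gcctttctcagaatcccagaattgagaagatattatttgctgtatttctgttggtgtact
For 13 members, Olr769, Olr771, Olr776 and Olr796 among them, the array annotation lists more than 1 RefSeq transcript for the probe, and their values may belong to several genes.

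Fewer members gave a signal above background in pups than in older rats. Above background means that a spot was positive and significant, well above its local background, uniform and not saturated. Of the 129 members, 62.6 ± 4.36 (SD, n = 4 litters) were above background in a newborn rat, 100.1 ± 3.79 (SD, n = 4 rats) in an adult rat and 98.1 ± 1.03 (SD, n = 4 rats) in an old rat, or 48.5%, 77.6% and 76.1%. The individual pups of L1 had 52, 85, 62 and 59 members above background, those of L2 54, 64, 55, 45 and 67, those of L3 72, 80, 56, 67 and 61, and those of L4 64, 44, 60, 77 and 63. Adult rats had 100, 104, 101.5 and 95 (mean of 2 arrays) and old rats 97, 98, 98 and 99.5. Pups did not overlap with older rats. The pup with the most members above background, from L1, had 85, and the older rat with the fewest, an adult, had 95. Adult and old rats overlapped.

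**Figure D1:**
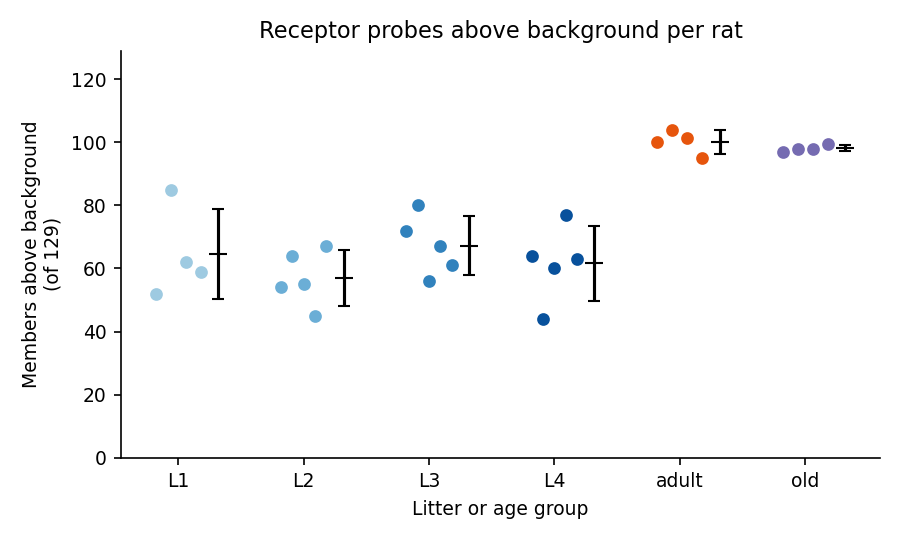
Number of the 129 members above background (y axis) in each pup of litters L1 to L4 and each adult and old rat (x axis; points, for adult and old rats the mean of 2 arrays), with the mean and SD over rats beside them. Pups lie between 44 and 85 and adult and old rats between 95 and 104.

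For the other 1009 OR probes the same shares were 46.9% ± 4.79 for newborn, 60.0% ± 4.13 for adult and 63.5% ± 2.12 for old rats (SD, n = 4 litters or rats). Over all 41012 probes they were 65.4%, 65.9% and 64.8%. The share of members above background in pups was thus within 1 SD of that of the other OR probes, and the share in adult rats was 77.6% against 60.0%. With the thresholds of the study, 3 arrays of a litter and 6 of 8 arrays of adult or old rats, 56 members each were expressed in L1 and L2, against 67 in L3 and 61 in L4, while adult rats expressed 98 and old rats 95. In the same order, 42, 56, 47, 48, 17 and 24 members had no array with a signal above background, and the rest were weakly expressed.

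A core of 49 members was expressed in all 4 litters, in adult and in old rats, and 37 members were above background on all 35 arrays. Of the other 1009 OR probes these were 344 and 212, and of all 41012 probes 23668 and 21519. Another 42 members, expressed at both older ages, missed the threshold in at least 1 litter, and 24 of them missed it in every litter. Here the counts were 181 and 67 among the other OR probes, and 962 and 218 among all probes. The subset of 9 members Olr630, Olr633, Olr649, Olr662, Olr666, Olr668, Olr731, Olr752 and Olr781 gave no newborn array above background at all. Such probes numbered 19 among the other OR probes and 61 among all probes. In the opposite direction, no member was expressed in all 4 litters and in neither adult nor old rats, and 1 member, Olr698, was expressed in at least 1 litter and in neither. Adult rats alone, against old rats, expressed 7 members and old rats alone 4, against 38 and 75 of the other OR probes and 1466 and 1046 of all probes. The 11 members above background on no array have no measured level here, and 140 of the other OR probes and 6859 of all probes were above background on none.

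Levels were compared as the log2 of the intensity divided by the median of its array, with limma and Benjamini-Hochberg adjustment over all probes, and a member was called at an adjusted p under 0.01. Newborn levels are the mean of the 4 litters. Against adult rats, 97 of 129 members (75.2%) were lower in newborn rats and 2 were higher. Over all probes, 19.8% were called lower and 26.8% higher in this comparison. Against old rats, 104 members (80.6%) were lower in newborn rats and 2 higher, where 22.7% and 20.4% of all probes were called lower and higher. Both comparisons use the same pups, and 91 members were called lower in both. The median log2 change of the 129 members was −2.04 against adult and −2.31 against old rats. That of all probes was 0.10 and −0.04, and relative to these medians the changes of the members were −2.14 and −2.27. After normexp background correction and quantile normalization, which adds 50 to each intensity, the members' medians were −0.51 and −0.63, with 98 and 99 members lower. Under that setting 25.0% and 23.3% of all probes were called lower.

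The shift was visible rat by rat. For 78 members every pup lay below every adult rat (10.8% of all probes), and for 91 members every pup lay below every old rat (12% of all probes). Of the 97 members lower than in adult rats, 86 were expressed in at least 1 litter or in adult rats, and 5 were above background on no array of these groups. For 73 members both ages were measured, with well above background signals on at least 1 array of each, and the folds ran from 1.59 to 26.3 with a median of 4.58. The highest is that of Olr729, which was above background in 2 of 19 pups and at the floor in some, so that its size depends on the floor. As 1 array of a group sufficed, other folds of the 73 members may depend on the floor as well. Among the 49 members expressed in all 6 groups the highest fold was 13.7, and their median log2 change was −1.64. For 15 members pups gave only a bound, from at least 1.09-fold to at least 8.44-fold lower, and for the last 9 no fold can be given. The bound sets the mean of the brighter group against the lowest level that was well above background on each array of the dimmer group. Against old rats, 84 members were measured at both ages (fold 1.50 to 36.5, again of Olr729, median 5.63), 13 had a bound and 7 had none. The highest fold among the 49 members was then 29.1, of Olr690, and their median log2 change was −2.28.

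**Figure D2:**
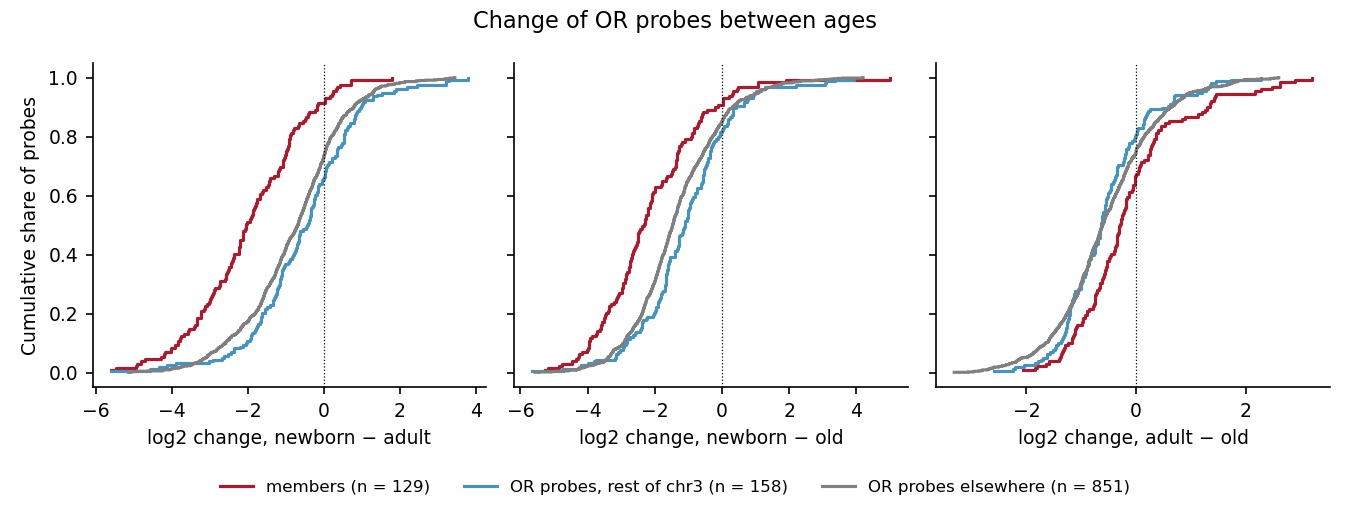
Cumulative share (y axis) of the 129 members (red), the 158 OR probes on the rest of chromosome 3 (blue) and the 851 OR probes elsewhere (grey) against their log2 change (x axis) for newborn minus adult, newborn minus old and adult minus old. The red line lies to the left of the others over most of its length in the first 2 panels, with medians of −2.04 and −2.31.

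Among the other 1009 OR probes, 382 (37.9%) were lower in newborn than in adult rats and 73 (7.23%) were higher, with a median of −0.66. Against old rats 599 of them (59.4%) were lower, 44 higher, and the median was −1.42. On chromosome 3 below 72 Mb, 50 of 158 OR probes (31.6%) were lower than in adult rats and 17 higher, and 86 (54.4%) were lower than in old rats. In adult against old rats, the median log2 change was −0.29 for the members and −0.62 for the other OR probes. These are counts side by side, and no test compared the sets of genes.

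L1 could be compared with old rats within 1 scan day, though on different slides and with 1 litter alone. L1 pups and old rats were scanned on the same day, and 97 members were lower and 1 was higher in L1, with a median log2 change of −2.38, while 18.8% and 13.4% of all probes were called lower and higher. The higher member was Olr698. With the methods' t-test 39 members were lower in L1, and the shares of all probes above, from limma, do not apply to this count. Among the other litters, which were scanned on later days, no member was called. None of the 129 members was called between L2, L3 and L4 with limma, against 5.53% of all probes. In this limma test 8 members had an unadjusted p under 0.05, and 10673 of all 41012 probes did. Calls were also few among the other 1009 OR probes, of which 10 were called and 141 had an unadjusted p under 0.05. Of the 158 OR probes on chromosome 3 below 72 Mb, 1 was called. The median SD between pups for expressed members was 0.51 and 0.67 on the log2 scale for L1 and L4, and 0.34 and 0.29 for L2 and L3, and between rats 0.20 in adult and 0.29 in old rats. These SDs are not like for like. A pup is a single array and an older rat the mean of its sides, and the expressed members differ between groups. Between sides A and B of a rat the median difference was 0.29 in adult and 0.32 in old rats.

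Markers of mature neurons were lower in newborn rats, and those of immature neurons were higher. All 7 measured genes of mature OSN, of 8 listed, were lower in newborn rats than in adult and than in old rats, with a median log2 change of −2.25 and −2.86. They include Omp, the olfactory marker protein, at −2.41 and −3.11, and Adcy3 at −2.67 and −2.94 (adjusted p 1.44e-13 and 4.36e-14). The summed level of the 7 genes lay between 206 and 459 in pups, 1243 and 1670 in adult rats and 1870 and 2579 in old rats, relative to the array median. Of the 7 immature neuron genes, 5 were called higher in newborn than in adult rats and 7 than in old rats. Among them was Gap43, a growth-cone protein, at 0.77 and 1.43. Tubb3 (0.46) and Crmp1 (0.18) were not called against adult rats. The summed level of immature genes was 1553 to 3105 in pups, 975 to 1390 in adult and 889 to 1150 in old rats. The part of the share of mature neurons, and of other cells such as muscle, in the members' change was not tested.

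Most genes of the wider transduction list were also lower in newborn rats, but the lists overlap. Omp, Gnal, Adcy3, Cnga2, Cngb1 and Stoml3 are among the mature OSN genes above and are counted again here. Rtp1, given below, is among those genes as well. Of the 14 measured transduction genes, 11 were lower and 2 higher in newborn than in adult rats, and 12 were lower than in old rats. Gnal fell by 2.03 and 2.24 in newborn rats against adult and old rats, and Cngb1, a channel subunit, fell by 3.25 and 2.86. The 2 higher than in adult rats were Adrbk2 (0.61), a kinase that phosphorylates active receptors, and Arrb2 (0.59), an arrestin. Of the 3 genes that help OR proteins reach the membrane, Rtp1 was lower in newborn than in both older groups (−1.86 and −1.56), Rtp2 was lower than in old rats, and Reep1 was called in neither comparison. Genes tied to receptor choice gave no common direction. Of the 8 measured, 2 were lower (Ebf2 and Lbr) and 1 higher (Atf5) in newborn than in adult rats, while Lhx2, a transcription factor needed for expression of most OR genes, had log2 changes of −0.08 and −0.26 that did not pass the test. Against old rats none of the 8 was lower and 2 were higher, Cbx5 (2.09) and Ebf3 (0.54). Lbr, the lamin B receptor, changed by −0.63 against adult rats and by 0.04, not called, against old rats.

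Along the chromosome, members lower in newborn rats were found throughout both clusters. In the first cluster 70 of 90 members (77.8%) were lower than in adult rats and 72 (80.0%) lower than in old rats, with medians of −2.13 and −2.49. In the second cluster these were 27 of 39 (69.2%) and 32 (82.1%), with medians of −1.76 and −2.09. In steps of 500 kb from Olr621, the members lower than in adult rats were 12 of 14, 15 of 18, 11 of 18, 14 of 18, 16 of 18 and 2 of 4. In the second cluster, counted from Olr747, they were 14 of 17, 10 of 17 and 3 of 5. All steps hold fewer than 20 members, so an order among them cannot be read.

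Neighbours differed by about as much as any 2 members of a cluster. The median absolute difference in log2 change (newborn against adult) between neighbours was 1.46 in the first and 1.01 in the second cluster, and 1.37 and 1.35 between any 2 members of the same cluster. The correlation of a member's change with that of the next one was −0.12 over 89 pairs and 0.04 over 38 pairs, a description only, as neighbours share arrays and partly sequence. By strand, 32 of 40 members on the plus strand and 65 of 89 on the minus strand were lower than in adult rats.

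**Figure D3:**
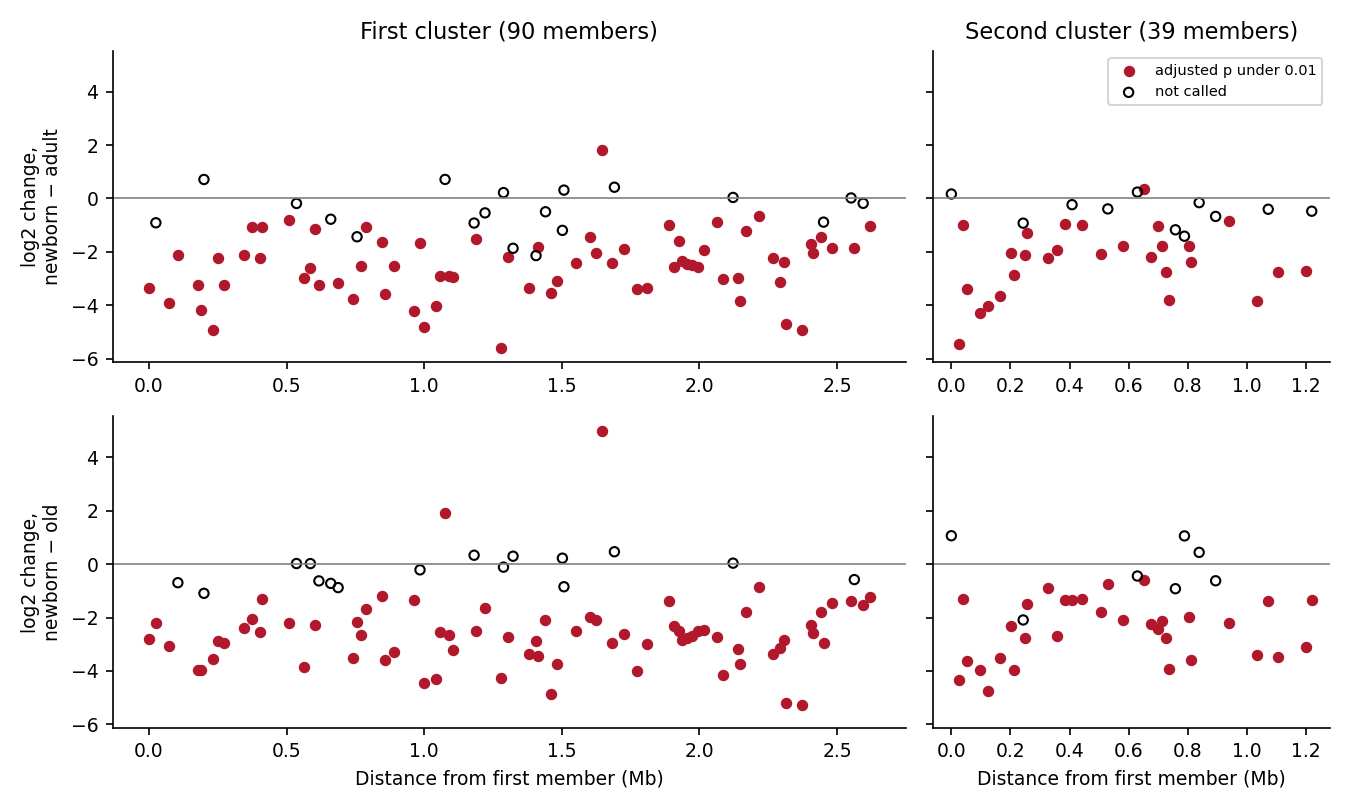
Log2 change of each member (y axis) for newborn minus adult (top) and newborn minus old (bottom) against its distance in Mb from the first member of the first cluster (left, 90 members) and the second cluster (right, 39 members). Filled points have an adjusted p under 0.01 and open points do not. Filled points below 0 lie along the whole of both clusters, and the highest point is Olr698 (1.80 and 5.01).

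All subfamilies held members that were lower in newborn rats. In Or4c, the largest, 36 of 44 were lower than in adult rats and none higher, with a median log2 change of −2.31. In Or4a, 17 of 21 were lower and 1 was higher (−2.44), in Or4p 7 of 9 were lower (−2.13), in Or4x 4 of 5 (−1.46) and in Or4b 2 of 4 (−1.01). The single Or4s member, Olr649, was lower. In the second cluster, 15 of 23 Or4f members were lower and 1 higher (−1.76), 10 of 13 Or4k members were lower (−1.93) and 2 of 3 Or4g members (−2.88). Detection differed between the 2 largest subfamilies of the second cluster. All 13 Or4k members were expressed in at least 1 litter and in adult and old rats, against 10 of 23 Or4f members in at least 1 litter and 16 in adult rats.

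**Figure D4:**
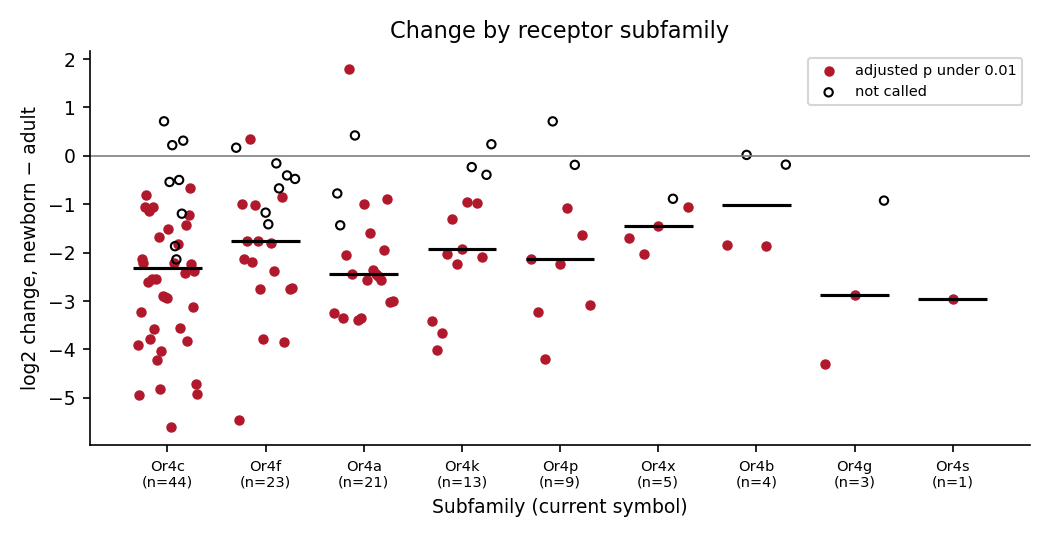
Log2 change, newborn minus adult (y axis), of the 123 members with a family 4 symbol, by subfamily (x axis, with the number of members). Filled points have an adjusted p under 0.01, open points do not, bars are medians. Medians lie between −2.96 for Or4s (n = 1) and −1.01 for Or4b (n = 4).

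Family 4 genes elsewhere in the genome gave a similar count, in a comparison added after the values were seen. Of 21 family 4 probes outside the 2 clusters (12 on chromosome 15, 5 on chromosome 1, 2 on chromosome 10 and 1 each on chromosomes 3 and 8), 16 (76.2%) were lower in newborn than in adult rats and 18 (85.7%) lower than in old rats, with medians of −2.29 and −2.64. Olr619, just outside the limit on chromosome 3, is one of them (Or4p7), with log2 changes of −2.63 and −3.19. Among the 15 OR families with at least 10 probes, the share lower in newborn than in adult rats ran from 21.2% (family 8, 25 of 118 probes) to 76.4% (family 4, 110 of 144 probes, 123 of these 144 being members). Families 2, 11 and 12 followed family 4 with 63.6%, 62.5% and 61.1%. Against old rats, family 2 (82.2%, 88 of 107 probes) and family 4 (82.6%) had nearly the same share.

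Single members show how far this went. Several members with no or almost no signal in pups were above background in older rats. Olr731 (Or4c3e) gave a log2 level between −6.64, the floor of the scale, and −2.44 in pups (median −4.06), on no array above background. The 4 adult rats had 0.78, 0.76, 0.67 and 0.72 and the 4 old rats 1.01, 1.05, 0.76 and 1.49. All pups lay below all older rats, and Olr731 was at least 8.21-fold lower in newborn than in adult rats and at least 10.4-fold lower than in old rats (adjusted p 3.93e-08 and 1.90e-08). Olr633 (Or4c31), above background on no newborn array, had levels of −6.64 to −2.48 in pups (median −4.41). It was at 0.61, 0.52, 1.01 and 0.90 in adult rats and −0.57, −0.86, −0.98 and −0.04 in old rats, and thus at least 8.44-fold and at least 3.26-fold lower in newborn rats. Its near-identical counterpart by probe, Olr621, the first member of the cluster, was above background in 8 of 19 pups and changed by −3.35 and −2.81 (adjusted p 1.38e-05 and 0.000136).

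Olr630 (Or4p19), Olr668 (Or4c108b) and Olr649 (Or4s2) were likewise above background on all adult and old arrays and on none of the newborn ones. They were at least 3.58-fold, 2.99-fold and 2.45-fold lower in newborn than in adult rats, and at least 3.07-fold, 3.59-fold and 4.56-fold lower than in old rats. Olr781 (Or4f57) was above background on 7 adult and 8 old arrays and was at least 1.55-fold and 1.70-fold lower. The bounds are low, as the signals of these members in older rats lay near the lowest level that was well above background.

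Olr729 and Olr753, which were measured in a few pups, had some of the largest fitted changes. Olr729 (Or4c3) was above background in 2 of 19 pups, with levels between −6.64 and −1.05 (median −3.81), against 0.47, 0.16, 0.51 and 0.82 in adult rats and 0.74, 0.50, 0.95 and 1.63 in old rats. The log2 change was −4.72 ± 0.74 (SE) against adult and −5.19 ± 0.74 against old rats (adjusted p 8.37e-06 and 2.89e-06). Olr753 (Or4k36) was above background in 6 pups and changed by −4.01 and −4.76. As pups at the floor have no order, the size of these changes depends on the floor.

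Olr690 (Or4c15b) combined a clear signal in pups with a large change. It was above background in 18 of 19 pups, with levels from −2.24 to 1.22 (median −0.55). Adult rats had 3.02, 2.97, 2.79 and 2.79, and old rats had 4.08, 4.02, 4.18 and 4.52. Pups, adult and old rats formed 3 ranges without overlap. The change was −3.56 ± 0.38 (SE) against adult rats and −4.86 ± 0.38 against old rats (adjusted p 2.69e-08 and 2.47e-10), while adult against old rats, at −1.31, did not pass (adjusted p 0.0339).

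Olr771 and Olr691 were among the members with the brightest probes, and Olr720 and Olr718 were on the RTqPCR list of the study. Olr771 (Or4k50) had levels of 2.10 to 3.29 in pups (median 2.78), 3.70, 3.59, 3.96 and 3.74 in adult rats and 3.70, 3.90, 4.26 and 4.38 in old rats. It changed by −0.98 and −1.29 (adjusted p 9.57e-05 and 3.49e-06), less than the median member. Olr691 (Or4p18b) changed by −3.08 and −3.73, with pups at −0.67 to 2.53 and the older rats at 4.28 or higher. Olr720 (Or4a47) changed by −3.00 and −3.16, and in adult against old rats by −0.17, which did not pass. Olr718 (Or4a81) was above background in 7 pups and on all adult and old arrays, and changed by −3.02 and −4.17 (adjusted p 2.12e-09 and 1.57e-11).

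Olr698 (Or4a15b) went the other way. It was above background in 2 of 4 pups of L1, every pup of L2 and L3 and 4 of 5 pups of L4, and on no array of adult or old rats. Levels were −2.12, −0.78, −2.41 and −1.04 in L1, and between −1.87 and −0.13 in the 15 pups of L2, L3 and L4. Adult rats had −2.50, −3.04, −2.38 and −3.15 and old rats −5.40, −6.64, −5.96 and −5.89. A pup of L1, rat 11, lay within the adult range, and all pups lay above all old rats. Newborn levels of Olr698 exceeded those of adult rats at least 2.41-fold and those of old rats at least 2.29-fold (adjusted p 8.24e-06 and 1.08e-12). Most members around it were called in the opposite direction. Of the 35 other members within 500 kb on either side, 25 were lower and 0 higher in newborn than in adult rats, and 28 were lower and 0 higher than in old rats.

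The other 2 calls of higher levels in newborn rats were small or rested on dim signals. Olr776 (Or4f7c) was above background on all arrays, with levels of 2.24 to 2.77 in pups (median 2.45), 2.36, 2.20, 2.11 and 1.83 in adult rats and 3.09, 3.21, 2.83 and 3.05 in old rats. It was 1.27-fold higher in newborn than in adult rats (log2 change 0.34, adjusted p 0.00066), with 1 adult rat inside the range of the pups, and this call was lost without adult rat 16 (log2 change 0.24, adjusted p 0.0113). It was also lost with the 75th percentile, litter means, normexp and the methods' t-test (adjusted p 0.0424, 0.0402, 0.0107 and 0.0898). Against old rats it was lower by 0.58 on the log2 scale (adjusted p 1.26e-06). Olr670 (Or4c110), named because it is the only other call in this direction, was above background on 1 newborn, no adult and 1 old array.

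**Figure D5:**
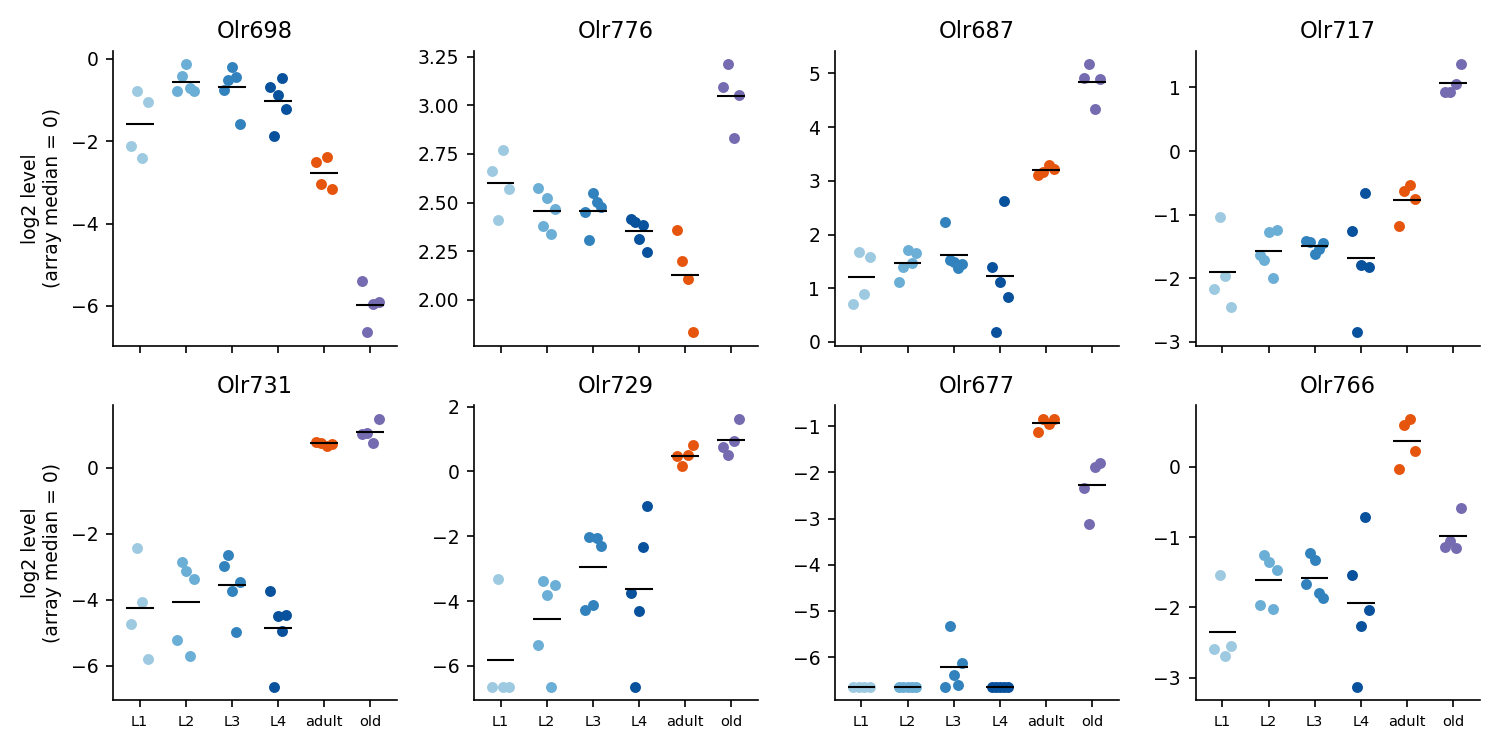
Log2 level relative to the array median (y axis, a scale of its own for each gene) of 8 named members in each rat of L1 to L4, adult and old rats (x axis; points, with the group mean as a bar). The group means of Olr698 are highest in the 4 litters. Olr677 is at or near the floor of −6.64 in pups, and Olr729 is at the floor in some of them. Olr731 is lower in every pup than in every older rat, and Olr687 and Olr717 are highest in old rats.

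Adult and old rats differed in fewer members. Higher levels in old rats were called for 14 members (10.9%) and lower levels for 8 (6.2%), where 20.2% of all probes were lower and 11.7% higher in adult than in old rats. Among the other OR probes 213 of 1009 (21.1%) were higher in old rats and 20 lower. The place of the members among all probes depended on the processing. After normexp correction and quantile normalization 34 members (26.4%) were higher in old rats, against 15.0% of all probes, and with only adult and old rats in the fit 26 members (20.2%) were, against 19.8% of all probes. All 14 members higher in old rats were expressed in adult or old rats. Of the 8 lower ones, 4 (Olr625, Olr650, Olr665 and Olr698) were above background on no array of either group and have no fold. Olr625, Olr650 and Olr665 are named here because they make up that count.

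Among the members called higher in old than in adult rats, Olr717 (Or4a77d) had the largest change. Pups were at −2.85 to −0.67 (median −1.61), adult rats at −1.17, −0.63, −0.53 and −0.75 and old rats at 0.93, 0.93, 1.06 and 1.37. The adult and old rats did not overlap, with a log2 change (adult minus old) of −1.84 (adjusted p 6.25e-05). Olr687 (Or4c121) was at 3.10, 3.17, 3.30 and 3.22 in adult and 4.92, 5.17, 4.34 and 4.89 in old rats, a change of −1.63, and pups, at 0.18 to 2.62, lay below both. Olr689 (Or4c122), Olr778 (Or4f56), Olr646 (Or4c102) and Olr769 (Or4k48) were also higher in old than in adult rats, with log2 changes (adult minus old) of −1.58, −1.40, −1.37 and −1.10 (adjusted p 0.00229, 0.00258, 8.95e-06 and 0.000631). Of these, Olr689 and Olr769 were not called between newborn and adult rats (−0.50 and −0.23). The call for Olr778 was lost without adult rat 13 (adjusted p 0.0119).

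Of the members lower in old than in adult rats, 4 were expressed in adult rats. Olr677 (Or4c115) was above background on all 8 adult arrays and on no newborn or old array. Adult rats had −1.12, −0.83, −0.94 and −0.85 and old rats −2.34, −3.11, −1.87 and −1.78, and pups were at or near the floor (highest −5.34). It was at least 2.03-fold higher in adult than in old rats and at least 2.61-fold higher than in newborn rats (adjusted p 5.26e-05 and 1.06e-16). The p-value against newborn rats depends on the floor, where most pups lay, and does not measure a spread between pups. The difference between adult and old rats did not pass with quantile normalization (adjusted p 0.201) or in the authors' matrix (adjusted p 0.0242). Olr664 (Or4c107) was above background on 6 adult arrays and on none of the others, with too little signal for a fold. Olr748 (Or4f53) had a related pattern, on 8 adult, 4 old and no newborn arrays, and was at least 2.49-fold lower in newborn than in adult rats. A pup of L2, rat 21, had no value for Olr748 and was left out of its fit, and adult against old rats did not pass (adjusted p 0.034).

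Olr742 (Or4b13b) and Olr766 (Or4k44) were measured at all ages and highest in adult rats. Olr742 was at 0.96, 0.79, 0.02 and 0.02 in adult rats, −1.04, −0.66, −0.62 and −1.04 in old rats and −3.22 to −0.41 in pups (median −1.09). It changed by 1.29 between adult and old rats (adjusted p 0.000577). That call was lost with litter means as newborn replicates and with the methods' t-test (adjusted p 0.0174 and 0.0277). Between newborn and old rats Olr742 changed by −0.58, which did not pass (adjusted p 0.0276). The litters differed here. L1 pups, scanned on the same day as old rats, had −2.56, −1.70, −2.84 and −3.22, all below the old rats. Pups of the other litters, at −1.79 to −0.41, overlapped with the old rats. Olr766 was at −0.03, 0.59, 0.69 and 0.22 in adult rats and −1.14, −1.06, −1.16 and −0.59 in old rats, a change of 1.36 (adjusted p 0.00323), with pups at −3.13 to −0.71. This call was lost without adult rat 14 or 15 or old rat 17 or 19 (adjusted p 0.0103 to 0.0124), and with scan day or slide as a random block (adjusted p 0.0198 and 0.0109). Adult and old arrays were scanned on different days.

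The last member along the chromosome, Olr796 (Or4f60), was dim throughout. It was above background in 5 pups, on 2 adult and on 6 old arrays, and differed between newborn and old rats (−1.34, adjusted p 0.00552) but not, within the test, between newborn and adult rats (−0.48, adjusted p 0.319). The difference between newborn and old rats did not pass without old rat 17, 18 or 19 (adjusted p 0.0126 to 0.0261), or with scan day or slide as a random block (adjusted p 0.0272 and 0.0189). In all, 17 members were called neither against adult nor against old rats. Of these, 7 were above background on no array. Olr775 (Or4k), named after its values were seen, was the only one of the 17 above background on all arrays.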

How the data were processed

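RNA of olfactory epithelium from 27 rats was hybridized to 35 Agilent whole rat genome arrays with 1 dye. The authors extracted each scan with Feature Extraction (9.5.1.1 for the 8 adult arrays, 9.5.3.1 for the other 27) and deposited the background-subtracted intensity of each spot, not normalized between arrays, with its mean signal, local background and quality flags. They also deposited a matrix of ratio values, scaled per array and per probe in GeneSpring, used here only as an alternative.

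From the scanner files, control spots and spots flagged as outliers were left out, which left 41012 probes and removed 890 values on 494 probes. A single array value was missing for each of 2 members (Olr695 in adult rat 15, side A, whose level is that of side B, and Olr748 in rat 21 of L2). Intensities were scaled to the array median and raised to at least 0.01 before the log2 was taken, so that the floor is −6.64. Between 9.30% and 26.4% of the members were at the floor in a pup, 3.10% to 7.75% on an adult array and 6.20% to 10.9% on an old one. For each adult or old rat, sides A and B were averaged. The median intensity of an array was 42.1 to 87.7 in pups, 81.6 to 162 in adult and 37.1 to 55.3 in old rats. Precision is limited by how many arrays there are.

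Differences were tested with limma 3.58.1 (lmFit and eBayes, R 4.3.3) over 6 groups (each litter, the adult rats and the old rats), with Benjamini-Hochberg adjustment over all probes and no filter. The fit was tested on simulated data. Current symbols came from RefSeq (GRCr8) through the accession. Its gene models for these members had a median length of 936 bases, and 120 of 128 were shorter than 1100 bases, so the sequence before them was not used as promoter.

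Members, gene lists (transduction, trafficking, receptor choice and markers of mature and immature neurons, basal, sustentacular, ciliated, red, muscle and bone cells and macrophages) and tests were chosen with earlier results of these data known. A listed gene with several probes was read from its brightest. In newborn against adult and newborn against old rats, 2 and 2 of 4 basal cell genes were higher, 2 and 3 of 3 sustentacular genes lower, 0 and 1 of 2 ciliated genes lower, 2 and 1 of 2 red cell genes higher, 3 and 3 of 3 muscle genes higher, 0 and 4 of 4 osteoblast genes higher and 2 and 2 of 3 macrophage genes higher. Named members, 28 in all, include those with the 4 largest called changes in each direction without overlap of rats, and the 5 brightest. The rule also took members expressed in all 4 litters and in neither adult nor old rats, of which there were 0. The others are the 5 brightest of those above background in older rats and in no pup, those in the study's RTqPCR list, and the first and last along the chromosome. Alternatives were other scalings, floors, background correction, the authors' matrix, arrays as samples, random or fixed blocks (correlations 0.459 for rat, 0.189 for slide and 0.173 for scan day), filters, the methods' t-test and leaving out each rat.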

Additional observations from a re-analysis of the deposited data

Results flagged for a closer look

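In 110 groups of 4 or 5 rats in which a named member was expressed, or members above background were counted, 4 held a rat far from the others, where chance gives about 1 in 20. Rat 26 of L3 had a log2 level of 2.23 for Olr687, against 1.38 to 1.53 in its litter. Adult rat 14 had 3.76 for Olr720, against 3.37 to 3.43. Old rat 18 had 1.45 for Olr753, against 2.08 to 2.12. Old rat 20 had −0.59 for Olr766, against −1.16 to −1.06.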

How the results depend on the processing

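The numbers of members lower in newborn than in adult rats (97) and than in old rats (104) were 84 to 100 and 92 to 106 under all alternatives, except that 42 and 48 were called when only the 49 members expressed in all 6 groups were tested. Leaving out 1 rat gave 90 to 98 and 96 to 105. Members higher in newborn than in adult rats (2) numbered 1 with the 75th percentile, litter means, normexp with quantile normalization or the filter on all 6 groups, and 1 to 2 without a rat. Members higher than in old rats (2) numbered 1 with the 75th percentile, the floor of 0.1, normexp or the filter on 1 group, and 0 with the filter on all 6 groups. Members higher in old than in adult rats (14) numbered 27 with every array as a sample, 25 with litter means, 34 with normexp and 26 with only the groups compared, and 10 to 17 without a rat. Those lower in old rats (8) numbered 13 with every array as a sample, 0 with the filter on all 6 groups, 5 with the methods' t-test, and 6 to 10 without a rat. In L1 against old rats, 97 lower members became 48 with the filter on all 6 groups, which also left 0 higher, and 39 with the methods' t-test, and were 89 to 100 without a rat. Among L2, L3 and L4, no call became 2 with the 75th percentile or the authors' matrix, 1 with every array as a sample, with or without the rat as a random block, with the floor of 0.1, the floor before scaling, the filter on all 6 groups, quantile normalization, scan day as a random block or an intensity trend, and 0 to 3 without a rat.

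The median change against adult rats (−2.04) was −1.60 with the 75th percentile, −1.46 with the floor of 0.1, −2.16 with the floor before scaling, −0.51 with normexp, −1.64 for members expressed in all 6 groups and −2.23 with quantile normalization. Against old rats (−2.31) it was −2.05, −1.99 and −0.63 with the 75th percentile, the floor of 0.1 and normexp, and −2.56 with the filter on 1 group. In adult against old rats (−0.29) it was −0.56 for members expressed in all 6 groups. Without a rat the medians were −2.08 to −1.97, −2.46 to −2.25 and −0.38 to −0.18.

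Counting every positive and significant signal, the means were 96.6 members per newborn, 119.8 per adult and 112.2 per old rat, and 91, 90, 103 and 96 were expressed in L1 to L4. Without a rat, the means were 60.9 to 63.7, 98.8 to 101.8 and 97.7 to 98.5, and the members expressed were 47 to 53 in L1, 52 to 56 in L2, 59 to 67 in L3, 57 to 61 in L4, 83 to 91 in adult and 91 to 93 in old rats.

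Of 64 called changes of named members, 64 kept their direction and 47 their call in all alternatives. With the floor before scaling, Olr633, Olr649, Olr664, Olr668, Olr753, Olr766 and Olr781 each lost 1 call between newborn and adult or old rats, and Olr677 its call between adult and old rats. Olr698 lost its call between adult and old rats with the 75th percentile, the floor of 0.1 and normexp. Changes that were not called turned in 2 cases, to 0.0368 for Olr771 (normexp) and 0.000384 for Olr781 (quantile normalization) in adult against old rats. The cause was not tested. No paired analysis was possible because the groups share no replicate numbers. The floor limits the size of changes of members not detected in pups.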
